A study of Homo sapiens with 6 samples.

Results

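NF-κB is a family of dimeric transcription factors built from 5 subunits, and the IκB proteins bind those dimers. This account follows the 10 genes NFKB1, NFKB2, REL, RELA, RELB, NFKBIA, NFKBIB, NFKBIE, NFKBIZ and BCL3, taken by name from the deposited tables of a beta cell line exposed to inflammatory cytokines. Each of the 10 was found in 1 of the 61695 loci of the deposited count tables, and all 10 loci were among the 30206 that the authors tested. For 7 genes the locus holds no other symbol, while REL, NFKBIZ and BCL3 share theirs with another gene. EndoC-βH1, a cell line made from human fetal pancreas, secretes insulin and serves as a model of the beta cell; a single line was used. The cytokine group was 3 libraries of cells exposed for 24 h to IL-1β at 5, TNF-α at 10, IFN-γ at 50 and IL-17 at 100 ng/ml, given together. The control group was 3 libraries without cytokines. Both groups grew in medium with 11 mM glucose after 24 h of adhesion. The labels describe the controls as taken before exposure and the extraction protocol as kept without cytokines for the same 24 h, so time in culture and cytokines cannot be told apart.

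The deposited tables hold 1 comparison, with a log2 fold change and its standard error (SE), and no value for a single library. Group means below therefore combine the deposited overall mean with the fold change, and the error given is the SE of the authors' fit. The deposited tables held a mean of 40881975 normalized counts per library. No label names separate cultures for the libraries, so SE and p-values measure library-to-library spread alone, possibly technical. Of 11 beta cell markers, 11 were tested in the deposited table, with 2 higher and 6 lower with cytokines and log2 fold changes between -1.63 and 2.25. Among all tested loci 18.0% were higher and 19.7% lower. The share of markers called higher was thus near that of all loci, while the share called lower, 6 of 11, was above it. The value of 2.25 is that of IAPP in a locus of 6 symbols, and INS was counted in a locus of 7 symbols. SLC30A8, the zinc transporter of insulin granules, had 21850 normalized counts with cytokines and 33893 in control in the deposited table, and CHGA, another granule protein, had 296413 with cytokines and 136426 in control. In the authors' second table, made with Cuffdiff, SLC30A8 stood at a log2 fold change of -0.62. CHGA and INS were listed there at 0, so the CHGA rise rests on the count table alone. The part of these markers in the results below was not tested. Of 10 immune cell markers, 7 had a mean under 3 counts in the deposited table, including PTPRC at 1.69 and CD3E at 0.143. CD14 had a mean of 84.1 counts, CSF1R 13.2 and CD68, in a locus of 9 symbols, 23470. Of 8 other islet and exocrine markers, 3 were under 3 counts. KRT19 had a mean of 3245 counts, CPA1 1664, GHRL, counted with SEC13, 5353, GCG 5.80 and KRT7 5.56. Of 7 stromal and endothelial markers, 4 were under 3 counts, and their summed means were 1423 counts with cytokines and 562 counts in control in the deposited table. Most of that sum was COL1A1, which rose by 1.39 ± 0.06 on the log2 scale, and its part in the results below was not tested.

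In resting cells the classical inhibitors IκBα, IκBβ and IκBε, encoded by NFKBIA, NFKBIB and NFKBIE, hold NF-κB dimers in the cytoplasm. IL-1β and TNF-α activate the IκB kinase (IKK) complex, which marks these inhibitors for destruction so that RELA, REL and the NFKB1 product p50 reach the nucleus and bind κB sites. In a slower, non-canonical branch the NFKB2 precursor p100 is processed to p52, which pairs with RELB. NFKBIZ (IκBζ) and BCL3 are atypical members that act in the nucleus, mainly with p50 and p52 dimers, and IκBζ is a known mediator of IL-17 responses. NF-κB activity in beta cells is a known part of the response to IL-1β.

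The stretches before the transcript starts are shown because NF-κB is known to bind κB sites in the promoters of its own family genes. RefSeq (GRCh38.p14) gave start windows for 8 of the 10 genes, 14 windows of 300 bases in all. RELB and NFKBIE were not among them. Below are the 250 bases before a start, 5′ to 3′ in the direction of the gene, for 3 genes with a large change and for RELA, with matches to the κB consensus in capitals. They are chr14:35404750-35404999 (minus strand) for NFKBIA, chr10:102395455-102395704 (plus strand) for the most downstream of 3 NFKB2 starts, chr3:101827740-101827989 (plus strand) for the upstream of 2 NFKBIZ starts and chr11:65662917-65663166 (minus strand) for RELA.
NFKBIA: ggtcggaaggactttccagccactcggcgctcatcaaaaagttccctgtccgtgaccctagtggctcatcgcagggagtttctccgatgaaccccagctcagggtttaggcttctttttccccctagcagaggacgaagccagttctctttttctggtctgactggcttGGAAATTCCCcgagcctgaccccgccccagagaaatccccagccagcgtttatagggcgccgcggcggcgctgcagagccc
NFKB2: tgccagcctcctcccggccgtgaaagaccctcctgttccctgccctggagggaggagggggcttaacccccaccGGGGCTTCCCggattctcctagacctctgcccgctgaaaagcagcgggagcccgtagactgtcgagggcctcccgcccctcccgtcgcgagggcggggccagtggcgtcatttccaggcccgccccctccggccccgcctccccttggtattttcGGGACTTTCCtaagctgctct
NFKBIZ: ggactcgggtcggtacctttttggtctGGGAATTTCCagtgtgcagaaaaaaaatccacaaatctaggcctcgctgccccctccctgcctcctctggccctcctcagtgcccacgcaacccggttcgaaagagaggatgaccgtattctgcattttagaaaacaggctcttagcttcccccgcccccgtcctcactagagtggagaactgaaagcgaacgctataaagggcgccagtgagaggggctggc
RELA: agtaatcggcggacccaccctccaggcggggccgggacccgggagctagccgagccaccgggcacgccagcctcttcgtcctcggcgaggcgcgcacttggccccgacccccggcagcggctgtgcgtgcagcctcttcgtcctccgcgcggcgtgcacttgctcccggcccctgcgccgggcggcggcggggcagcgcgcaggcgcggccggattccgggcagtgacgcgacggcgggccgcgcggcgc

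The κB consensus of 10 bases was searched on both strands. It was present in 9 of the 14 windows, belonging to 7 of the 8 genes, against 5.91% of 35116 RefSeq start windows of the same length. Overlapping matches counted once, there were 11 separate stretches, of which NFKB2 had 4 and NFKBIZ 2. Neither RELA window held a match, which says only that these letters are not in those 300 bases. NFKBIB, with a log2 fold change of 0.38 with cytokines, did hold a match, and RELB, at 2.19, had no window. Whether matches go with the size of the change was not tested. The spelling GGGAATTTCC, read on one strand or the other, was shared by 5 genes, each written here on the strand that gives this spelling, with NFKB2's match nearest to a start and BCL3's match after them.
NFKB1: GGGAATTTCC
NFKBIA: GGGAATTTCC
NFKBIB: GGGAATTTCC
REL: GGGAATTTCC
NFKBIZ: GGGAATTTCC
NFKB2: GGGACTTTCC
BCL3: GGGACTTCCC
In REL and NFKBIB the opposite strand also matches, shifted by 1 base, as GGGAAATTCC. The first base of the match, along the gene, lay 49 bases before the RefSeq start in NFKB1, 81 in NFKBIA, 28 in NFKBIB, 46 in REL, 223 in NFKBIZ and 21 in NFKB2, and in BCL3 it lay 2 bases after it. The RefSeq start of REL is that of its 587-residue transcript, at 60881574. Its 619-residue transcript starts at 60881521 in GENCODE release 44, so the match at 60881528 to 60881537 lies after that start. The member windows had a GC content between 51.3% and 80.0%, and the median of all windows was 58.7%, with an upper quartile of 68%. The upstream windows of RELA and NFKBIZ, at 51.3% and 55.7%, were the only member windows below that median. The share of 5.91% was not matched for GC content. A match is a description of letters, and no binding was measured in these libraries.

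**Figure D1:**
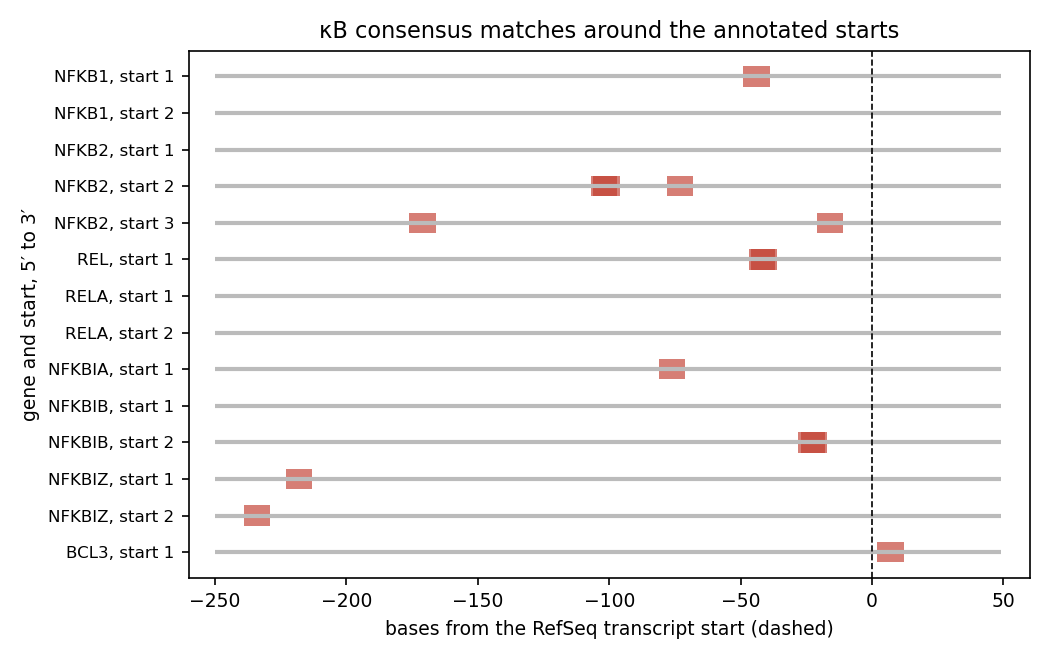
Position of κB consensus matches (red boxes, 10 bases each) in the 14 RefSeq start windows of 8 genes; the horizontal axis gives bases from the transcript start, from 250 before it to 50 after it. Each row is a start, numbered 5′ to 3′ along the gene, and darker boxes are overlapping matches; 9 of 14 rows hold a match and neither RELA row does.

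All 10 loci were higher with cytokines in the authors' deposited count table at an adjusted p threshold of 0.05, against 18.0% of all tested loci that were higher and 37.7% that passed in either direction. Among the 12058 tested loci at least as abundant as BCL3, the least abundant of the 10, 31.3% were higher. The size of the change split the family. NFKBIA, RELB, NFKB2, NFKBIZ and BCL3 rose more than 3.5-fold, REL and NFKB1 by just under 2-fold, and NFKBIB, NFKBIE and RELA by under 1.4-fold. A rise of at least 2-fold past the threshold was reached by 5 of the 10, against 6.53% of all tested loci in the deposited table. The median log2 fold change of the 10 was 1.41, beside 0.05 over all loci tested.

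The subunit with the smallest change was the main activating one. RELA (chromosome 11, 65653599 to 65663090, hg38, GENCODE release 44) encodes p65, which carries a strong transactivation domain. It had a mean of 2974 normalized counts with cytokines and 2408 in control, a log2 fold change of 0.30 ± 0.04 (SE) in the authors' deposited table (adjusted p = 1.22e-14, the authors' DESeq test). REL (chromosome 2, 60881491 to 60931612) encodes c-Rel, another subunit with a transactivation domain, best known in lymphoid cells. Its locus had 873 normalized counts with cytokines and 451 in control, a log2 fold change of 0.95 ± 0.08 in the authors' deposited table (adjusted p = 1.61e-33). That locus also held RP11-373L24.1, a noncoding gene that overlaps the end of REL on the same strand by 5702 bases, so the value belongs to both.

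The precursor genes differed from each other. NFKB1 (chromosome 4, 102501330 to 102617302) encodes p105, the precursor of p50, and had 3141 normalized counts with cytokines and 1677 in control in the deposited table. NFKB2 (chromosome 10, 102394110 to 102402524), which encodes p100, had 4396 normalized counts with cytokines and 1018 in control. The log2 fold changes were 0.91 ± 0.04 for NFKB1 (adjusted p = 1.24e-98) and 2.11 ± 0.04 for NFKB2 (adjusted p listed as 0) in the authors' deposited table. RELB (chromosome 19, 45001461 to 45038192), the partner of p52, had the second largest change of the 10 loci. It had 2179 normalized counts with cytokines and 476 in control, a log2 fold change of 2.19 ± 0.06 in the authors' deposited table (adjusted p = 5.51e-273). The changes of RELB and NFKB2 differed by 0.08 on the log2 scale, with a 95% interval of -0.06 to 0.23 from the deposited SE, so they did not differ beyond their error.

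Among the classical inhibitors, a large rise was seen in 1 gene. NFKBIA (chromosome 14, 35401079 to 35404749) encodes IκBα, whose resynthesis is known to end a pulse of NF-κB activity. It had 8921 normalized counts with cytokines and 1415 in control in the authors' deposited table, a 6.30-fold rise with a 95% interval of 6.01 to 6.61 (adjusted p listed as 0). It ranked 977 from the top among the 30206 tested loci by fold change. NFKBIB (chromosome 19, 38899700 to 38908893), which encodes IκBβ, had 1054 normalized counts with cytokines and 808 in control, a log2 fold change of 0.38 ± 0.07 in the authors' deposited table (adjusted p = 4.93e-08). NFKBIE (chromosome 6, 44258166 to 44265788), which encodes IκBε, had 861 with cytokines and 678 in control, a log2 fold change of 0.35 ± 0.07 in the authors' deposited table (adjusted p = 1.41e-06). NFKBIB shares 163 bases with SIRT2 on the opposite strand, and RELA 103 bases with the noncoding RELA-DT. The library kit keeps strand, but whether the counting used it is not stated, so reads of these shared bases cannot be assigned.

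Both atypical members rose at the locus level, where the NFKBIZ value includes another gene. NFKBIZ (chromosome 3, 101827991 to 101861022) had 5137 normalized counts with cytokines and 1356 in control, a log2 fold change of 1.92 ± 0.04 in the authors' deposited table (adjusted p listed as 0). BCL3 (chromosome 19, 44747705 to 44760044), a proto-oncogene, was the least abundant of the 10, with 263 normalized counts with cytokines and 71.7 in control. Its log2 fold change was 1.88 ± 0.16 in the authors' deposited table (adjusted p = 3.84e-30), the widest error of the 10. The NFKBIZ locus also held the neighbouring gene NXPE3, and the BCL3 locus the microRNA gene MIR8085. MIR8085 was listed at 0 FPKM in both groups in the deposited transcript table.

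**Figure D2:**
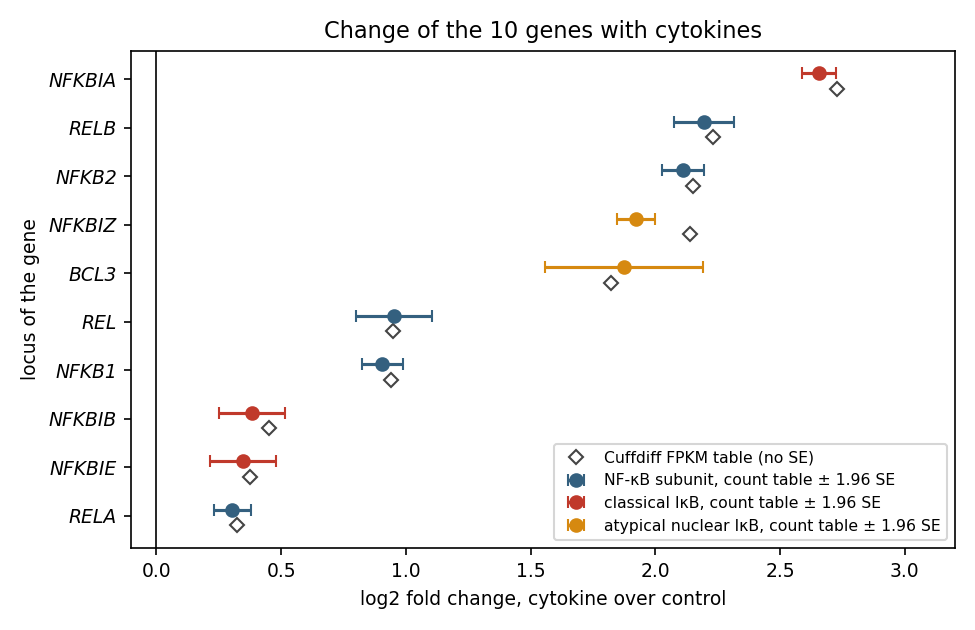
Log2 fold change of cytokine over control for the loci of the 10 genes, sorted by size; filled circles are the deposited count table with 95% intervals, coloured by role, and open diamonds are the deposited Cuffdiff table, which gives no SE. NFKBIA stands highest at 2.66, RELB, NFKB2, NFKBIZ and BCL3 between 1.88 and 2.19, and RELA lowest at 0.30.

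In order of log2 fold change the deposited values ran NFKBIA, RELB, NFKB2, NFKBIZ, BCL3, REL, NFKB1, NFKBIB, NFKBIE, RELA. Each neighbouring pair in that order was compared by the 95% interval of its difference, from the combined SE. RELB and NFKB2, NFKBIZ and BCL3, REL and NFKB1, NFKBIB and NFKBIE, and NFKBIE and RELA did not differ beyond that error. NFKBIA lay above RELB by 0.46 (95% interval 0.32 to 0.60), BCL3 above REL by 0.92 (0.57 to 1.27), and NFKB1 above NFKBIB by 0.52 (0.37 to 0.68) in log2 units of the deposited table. NFKB2 lay above NFKBIZ by 0.19 (0.08 to 0.30) as loci. The place of NFKBIZ depends on its shared locus: over the transcripts under each gene's own name, the log2 ratio of summed deposited FPKM was 3.52 for NFKBIZ, 2.73 for NFKBIA, 2.28 for NFKB2 and 2.23 for RELB, with no error given, so NFKBIZ then comes first. These intervals treat the errors of 2 genes in the same libraries as independent. Counting noise made up at most 47.2% of the squared SE at these loci. The remainder, as modelled in the authors' fit, corresponds to a spread between libraries of 2.15% (NFKBIA) to 9.96% (BCL3) of the level. That spread could not be measured, since no value per library is given.

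Levels between genes were compared in FPKM, fragments per kilobase of transcript scaled to library size, of which the authors' deposited Cuffdiff table gives 1 value per group. All 10 genes were past q = 0.05 there and higher with cytokines, against 17.8% of 21865 tested genes. The log2 fold changes of that table lay between -0.05 (BCL3) and 0.07 (NFKBIA) from those of the count table for 9 genes, and NFKBIZ stood at 2.14, which is 0.22 above its count table value. BCL3 had 3.73 FPKM with cytokines and 1.06 FPKM in control in the deposited table, with a q of 0.0464, close to the threshold. REL had a q of 0.00867, with 9.26 FPKM with cytokines and 4.80 FPKM in control. Both tools read the same 6 libraries, so the second table is no independent check.

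The order of levels changed between the groups. In cytokine-exposed cells the deposited FPKM ran from NFKBIA at 146 through NFKB2 at 36.6, NFKBIZ at 35.6, RELA at 29.6 and RELB at 23.1, to NFKB1 at 18.4, NFKBIB at 13.96, NFKBIE at 9.60, REL and BCL3. In control cells it ran from RELA at 23.6 and NFKBIA at 22.0 through NFKBIB at 10.2, NFKB1 at 9.57, NFKB2 at 8.24, NFKBIZ at 8.09 and NFKBIE at 7.40, to RELB at 4.91, REL and BCL3. By locus values RELA was thus the highest of the 10 without cytokines and number 4 with them. Its own level moved by a factor of 1.25. The NFKBIZ values are those of its locus. The transcripts under its own name summed to 28.3 FPKM with cytokines and 2.47 FPKM in control in the deposited table. In control that is below RELB and REL. The loci of NFKB1, NFKB2 and NFKBIE, which hold no other symbol, also hold FPKM of assembled transcripts without a gene name. The REL locus holds FPKM under another name as well. Summed over own-name transcripts, RELA had 29.6 FPKM with cytokines, above NFKBIZ and above NFKB2 at 27.7 FPKM. NFKBIA alone was then higher than RELA, so the place of RELA with cytokines depends on the locus values. In control RELA was the highest by either sum. The table gives no spread for these values, so it cannot be said which neighbours in either order differ beyond error.

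Summed per class in the deposited table, the 5 subunits had 117 FPKM with cytokines and 51.1 FPKM in control, a ratio of 2.29. The 3 classical inhibitors had 169 FPKM with cytokines and 39.6 FPKM in control, a ratio of 4.28, and the loci of the 2 atypical members had 39.4 FPKM with cytokines and 9.14 FPKM in control, a ratio of 4.31. Over transcripts under their own names the atypical members had 32.1 FPKM with cytokines and 3.53 FPKM in control, a ratio of 9.09. Within the subunits, RELA held 25.3% of the summed locus FPKM with cytokines and 46.2% in control. NFKB2 held 31.3% with cytokines and 16.1% in control. RELB held 19.7% with cytokines and 9.61% in control. By own-name transcripts the subunits summed to 97.4 FPKM with cytokines, of which RELA had 29.6 FPKM and NFKB2 27.7 FPKM. In control RELA had 23.6 FPKM and NFKB2 5.68 FPKM by the same sum. NFKB2 thus exceeded RELA with cytokines in locus values only. The rest of the NFKB2 locus was 6 assembled transcripts without a gene name, at 8.93 FPKM with cytokines and 2.56 FPKM in control. That locus holds no other symbol, so its own-name sum may leave out NFKB2 reads. Within the classical inhibitors, NFKBIA held 86.1% with cytokines and 55.5% in control. These are shares of messenger RNA with no error, and protein was not measured. In bulk samples a change of RNA per cell and a change in which cells contribute cannot be told apart.

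**Figure D3:**
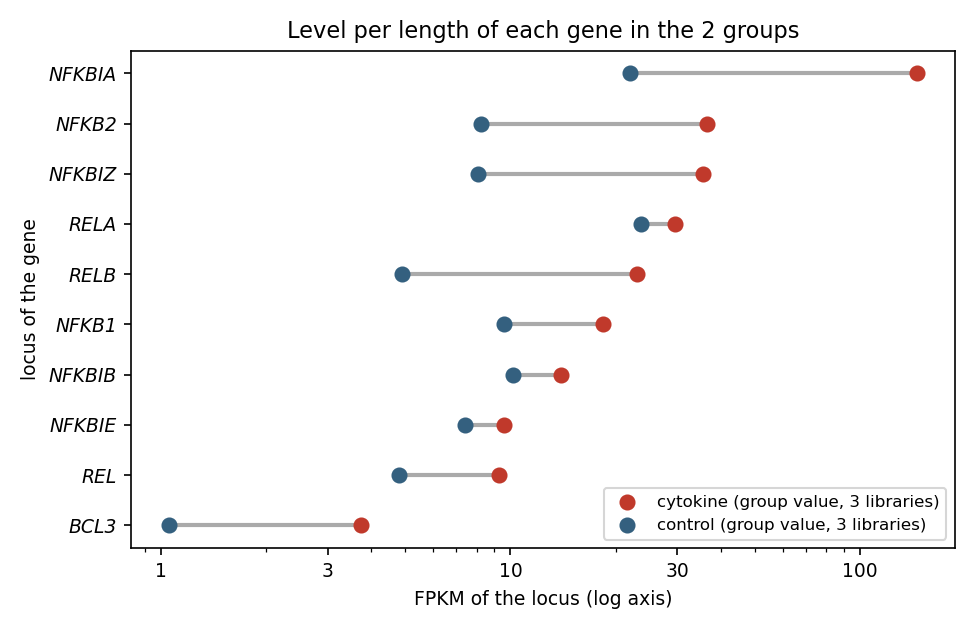
FPKM of the loci of the 10 genes in the deposited Cuffdiff table, on a log axis, sorted by the cytokine value; red points are the cytokine group and blue points the control group, 1 group value of 3 libraries each, with no error given. NFKBIA spans 146 against 22.0 FPKM, RELA 29.6 against 23.6 FPKM and BCL3 3.73 against 1.06 FPKM.

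The deposited transcript table lists 99 transcripts under the 10 gene names, of which 49 were tested. At q under 0.05, 18 were higher and 0 lower with cytokines, against 5.17% higher, 4.70% lower and 9.87% in either direction of 95649 tested transcripts. Cuffdiff estimates how reads divide among transcripts that share exons, so these levels are less certain than those of a locus. Of the 99, 93 were matched to GENCODE release 44 by identifier, 36 with the same version, and their lengths and starts come from there.

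NFKBIZ stood apart from its locus in the transcript table. Its 11 transcripts summed to 28.3 FPKM with cytokines and 2.47 FPKM in control in the deposited table, a ratio of 11.5, beside 4.41 for the whole locus in the deposited gene table. NXPE3, a gene on the same strand whose annotated span overlaps NFKBIZ by 15753 bases, had 3.58 FPKM with cytokines and 2.14 FPKM in control, with no transcript past the threshold. A further 9 assembled transcripts of the locus without a gene name summed to 3.71 FPKM with cytokines and 3.47 FPKM in control. Transcripts under another name or none thus held 20.5% of the locus with cytokines and 69.4% in control in the deposited table. The leading NFKBIZ transcript, ENST00000326172, encodes 718 residues and had 18.7 FPKM with cytokines and 1.68 FPKM in control (q = 0.000833). A shorter form of 601 residues, ENST00000483180, starts at the upstream window and had 2.41 FPKM with cytokines and 0.256 FPKM in control (q = 0.000833).

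The coding NFKB2 transcripts of all 3 starts were past the threshold and higher with cytokines. The coding transcript of the most downstream start, ENST00000189444, had 13.2 FPKM with cytokines and 2.48 FPKM in control in the authors' deposited table (q = 0.000833). The 2 windows with κB matches belong to the middle and the most downstream start. The coding transcript starting in the middle window had 4.35 FPKM with cytokines and 0.798 FPKM in control, a ratio of 5.45. The one from the most upstream start, whose window held no match, had 3.41 FPKM with cytokines and 1.01 FPKM in control in the deposited table, a ratio of 3.36. The ratio of the most downstream one was 5.31. These starts share most of the gene, and the ratios carry no error.

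NFKB1 had a pair of main coding transcripts with different values. ENST00000226574, which encodes 969 residues, had 7.39 FPKM with cytokines and 3.26 FPKM in control in the deposited table (log2 fold change 1.18, q = 0.000833). ENST00000394820, which encodes 968 residues, had 2.26 FPKM with cytokines and 2.84 FPKM in control and was not past the threshold (q = 0.723). Whether the transcripts differ from each other was not tested. Their shares of NFKB1 FPKM were 65.9% and 20.2% with cytokines and 49.8% and 43.4% in control. A further 2 assembled transcripts without a gene name summed to 7.14 FPKM with cytokines and 3.02 FPKM in control at this locus, and both were past the threshold.

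For NFKBIA a single transcript carried the level. ENST00000216797, which encodes the 317 residues of IκBα, had 133 FPKM with cytokines and 20.5 FPKM in control in the deposited table (q = 0.000833), which is 91.1% of the gene's FPKM with cytokines and 93.2% in control. RELA and RELB were likewise led by the transcripts of 551 and 579 residues. The RELA transcript had 21.9 FPKM with cytokines and 17.5 FPKM in control, and the RELB transcript 18.6 FPKM with cytokines and 3.71 FPKM in control (q = 0.000833 for each) in the authors' deposited table. Both REL coding transcripts were higher in value, but of these the 619-residue form alone was past the threshold (q = 0.0252), and the 587-residue form was not (q = 0.705).

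NFKBIB, NFKBIE and BCL3 were less clear at this level. The transcript with the highest NFKBIB level, ENST00000509705, is annotated as subject to nonsense-mediated decay and had 6.51 FPKM with cytokines and 4.80 FPKM in control in the deposited table (q = 0.0848). It held 46.7% of NFKBIB FPKM with cytokines and 47.1% in control, and 0 of 3 tested NFKBIB transcripts were past the threshold. NFKBIE rose in its 361-residue form, with 5.38 FPKM with cytokines and 3.62 FPKM in control (q = 0.000833), while ENST00000616555 had 1.86 FPKM with cytokines and 2.16 FPKM in control (q = 0.766). The BCL3 coding transcript of 454 residues had 2.48 FPKM with cytokines and 0.574 FPKM in control in the deposited table (q = 0.449). Thus the BCL3 rise was past the threshold for the locus in both tables and for 0 of 2 tested transcripts.

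**Figure D4:**
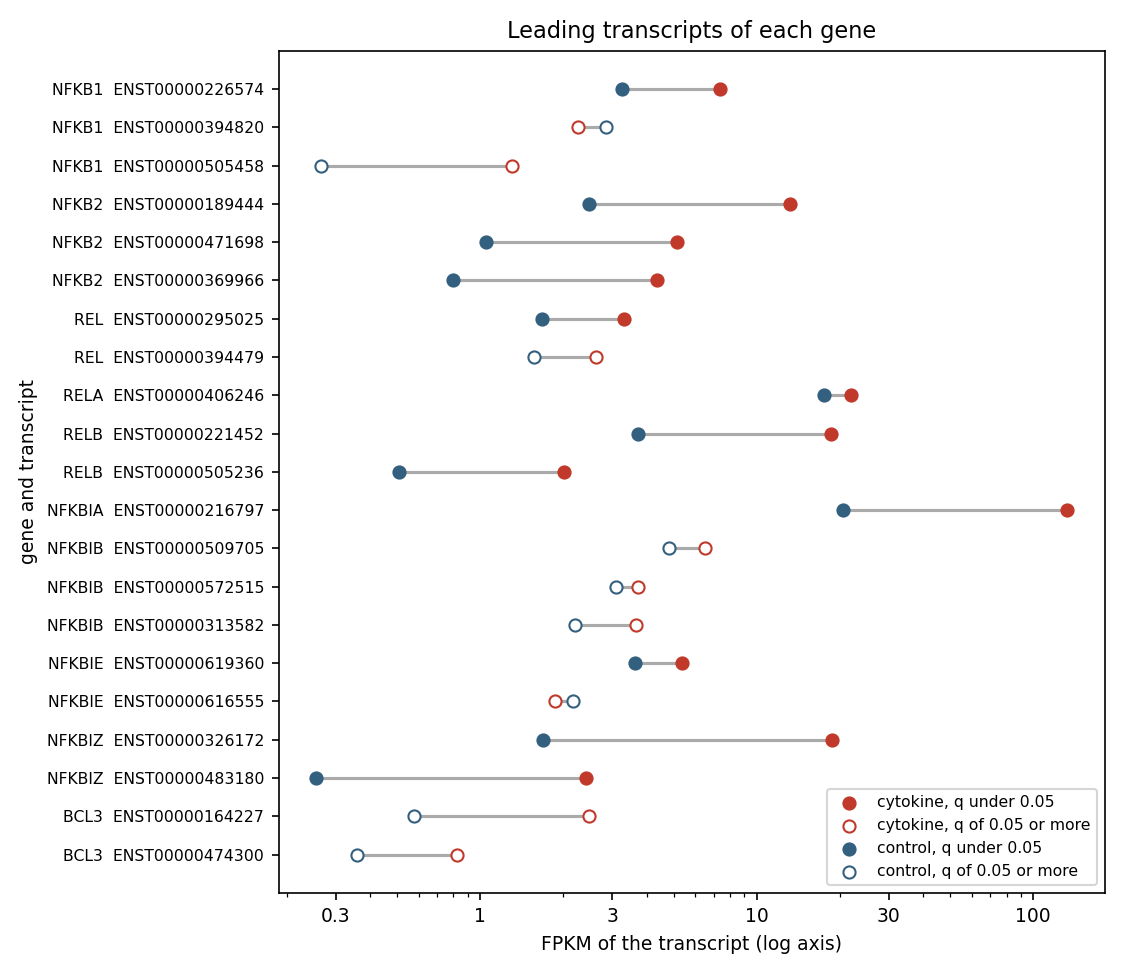
FPKM of the leading transcripts of the 10 genes in the deposited transcript table, on a log axis; red is the cytokine group and blue the control group, and filled points are transcripts past q = 0.05. Transcripts of at least 10% of a gene's FPKM in either group are drawn, up to 3 a gene; in NFKB1 and NFKBIE a filled pair stands beside an open pair whose cytokine value is lower.

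Other genes of the pathway were described by lists, whose members were chosen with earlier results of these data known. Upstream of IKK, the authors' deposited table called 13 of 16 adaptors and ubiquitin ligases higher and 1 lower, and their median log2 fold change was 0.61, beside 18.0% higher and 19.7% lower among all loci. BIRC3, the ubiquitin ligase cIAP2, had 2616 normalized counts with cytokines and 29.9 in control, a log2 fold change of 6.45 ± 0.16 in the deposited table. IRAK2, a kinase-like adaptor of the IL-1 receptor, rose by 3.01 ± 0.13. RNF31, the catalytic subunit of the linear ubiquitin ligase LUBAC, shared a locus with IRF9 that had 11372 normalized counts with cytokines and 2468 in control in the deposited table. RBCK1, its partner, rose by 1.62 ± 0.02 on the log2 scale. TRAF3 (-0.04 ± 0.04), a brake on the non-canonical branch, and SHARPIN (0.08 ± 0.06) were not past the threshold. Of 9 receptors and decoys for the cytokines given, 6 rose and 1 fell. TNFRSF1A, the main TNF receptor, rose by 1.01 ± 0.10 and IL1R2, a decoy for IL-1, fell by 0.61 on the log2 scale, while IL1R1 (0.30 ± 0.15) and IFNGR1 (-0.08 ± 0.05) missed the threshold in these deposited values.

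Of 11 kinases and partners at the IKK step, the authors' deposited table called 9 higher and 0 lower (median 0.46), beside 18.0% higher and 19.7% lower among all loci. MAP3K8, the kinase TPL2 that p105 binds, had 685 normalized counts with cytokines and 23.2 in control, a log2 fold change of 4.88 ± 0.19. The IKK-related kinase IKBKE rose by 3.16 ± 0.09 in the deposited table. The subunits of the IKK complex moved less, with CHUK, counted with ERLIN1, at 0.74 ± 0.02, IKBKB at 0.46 ± 0.05 and IKBKG at 0.28 ± 0.06, each past the threshold. MAP3K14, the kinase NIK that starts p100 processing, rose by 0.65 ± 0.08 in the deposited table, while MAP3K7 (-0.08 ± 0.04) and TAB2 (0.07 ± 0.03) were not past the threshold. Of the 4 genes of the ubiquitin ligase that recognises marked IκB, CUL1 alone rose, by 0.23 ± 0.03, a share near that of all loci, and 0 fell, and BTRC (-0.09 ± 0.04) and FBXW11 (0.02 ± 0.03) were not past the threshold.

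Of 9 tested brakes on the pathway, the authors' deposited table called 6 higher and 2 lower (median 0.55). Among all loci 18.0% were higher and 19.7% lower, so the share of brakes called lower was near that of all loci. TNFAIP3, the ubiquitin-editing enzyme A20, had 2166 normalized counts with cytokines and 342 in control, a log2 fold change of 2.66 ± 0.06, the same to 2 decimals as NFKBIA. In the deposited Cuffdiff table the 2 genes stood at 2.37 (TNFAIP3) and 2.73 (NFKBIA). The RNase ZC3H12A, the deubiquitinase CYLD and the A20-binding protein TNIP1 rose by 3.63 ± 0.13, 1.44 ± 0.03 and 1.08 ± 0.03 in the deposited table. NFKBID, a further nuclear IκB relative, rose by 0.55 ± 0.12, less than NFKBIZ and BCL3. PDLIM2 and COMMD1, which promote the loss of nuclear RELA, stood at -0.40 ± 0.10 and -0.35 ± 0.09, in loci they share with other genes. OTULIN, at 0.02 ± 0.05 in the deposited table, missed the threshold.

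Of 26 textbook NF-κB target genes, 22 were tested, and the authors' deposited table called 20 higher and 0 lower, at a median log2 fold change of 3.65. The shares over all loci were 18.0% higher and 19.7% lower. ICAM1, counted with ICAM4, CXCL8, CSF1 and CXCL2 stood at 9.79 ± 0.27, 9.44 ± 0.46, 7.17 ± 0.18 and 6.94 ± 0.30. CCL2, at 0.10 ± 0.39, and PTX3, at 0.18 ± 0.16 in the deposited table, missed the threshold. The 10 family genes thus had a median of 1.41 beside the 3.65 of this list, a difference that was not tested. Beside them, 7 of 9 IRF genes rose and 1 fell with a median of 1.70, and 5 of 7 STAT genes rose with a median of 0.69. Both stand against the same 18.0% higher and 19.7% lower among all loci. IRF and STAT proteins are the transcription factor families that interferons act through.

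**Figure D5:**
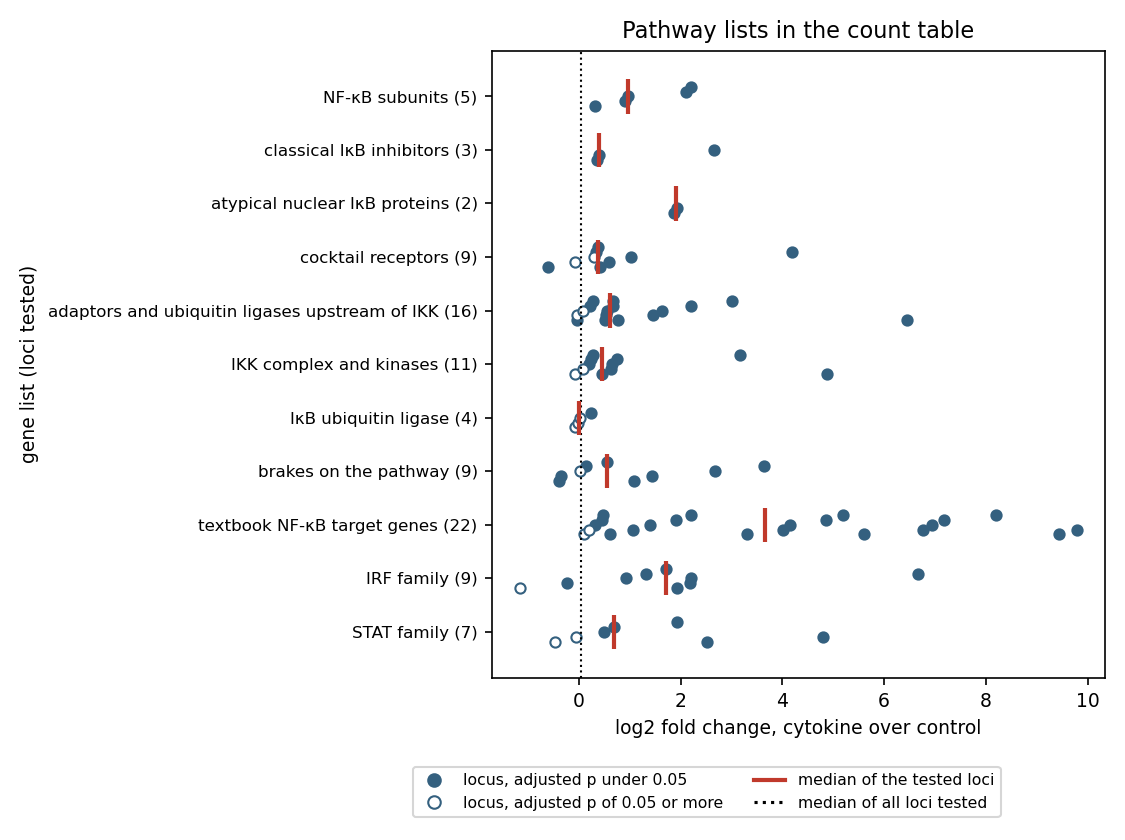
Log2 fold change of cytokine over control for each tested locus of 11 gene lists in the deposited count table; filled circles are past an adjusted p of 0.05, red bars are list medians and the dotted line is the median of all loci tested (0.05). The numbers of loci tested stand beside the list names; target genes have the highest median at 3.65 and the IκB ubiquitin ligase the lowest at 0.00.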

How the data were processed

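Poly(A) RNA of 6 EndoC-βH1 libraries was analysed here from the authors' tables. The submitters' processing notes name DESeq, Cuffdiff 2.2.1, StringTie, STAR 2.5.2b, FastQC 0.10.1, bcl2fastq and hg38, with no order. The authors' read counter, strand setting and annotation were not stated in the sources used here. Per the file headers the deposited count tables hold a base mean, a signal that is the mean of normalized read counts over the libraries. The deposited log2 values give cytokine over control, with an SE. The deposited score is that fold change over its SE, or Cuffdiff's own statistic. DESeq and Cuffdiff, as run by the authors, gave the deposited p-values, adjusted p-values and q-values, and the deposited FPKM are Cuffdiff group values.

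The tables hold only the authors' comparison and no value per library, so their adjusted p at 0.05 was used and no count model was fitted here; a planned description of the proteins was not made. A Benjamini-Hochberg adjustment over 30206 loci differed from the deposited one by at most 1.53e-15. Group means were worked out from the mean and fold change, taking equal groups of 3. Intervals are at the 95% level, from the SE. Transcripts were matched to GENCODE release 44, and start windows came from RefSeq. The adjustment, the re-centring and the test against a fold were tested on simulated data. All 10 genes are named, with transcripts of at least 10% of a gene's FPKM, up to 3 a gene; of each list, up to 4 of the largest changes with a mean of at least 50 counts and up to 2 not past the threshold were eligible, and other genes were added after their values were seen. Genes and lists were chosen with earlier results of these data known. Alternatives were another tool, centring, threshold, null, adjustment, abundance filter and loci of 1 symbol. Scripts ran on Python 3.11.15 with numpy 2.4.6, scipy 1.17.1, matplotlib 3.10.9 and pandas 2.3.3. Some genes of the lists are not reported here by name.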

Additional observations from a re-analysis of the deposited data

How the results depend on the processing

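All 10 genes kept a higher value with cytokines under every alternative run. Re-centring on loci of at least 1000 counts (a shift of -0.06), an adjusted p of 0.01, Holm adjustment and a mean of at least 10 counts left all 10 past the threshold, as did Cuffdiff's gene test. The shares of all loci called higher in the first 4 of these runs were 20.5%, 15.3%, 10.6% and 26.3%. For Cuffdiff's test, over loci tested by both tools, the share was 18.6%. Restricting to loci of 1 symbol left 7 genes, since REL, NFKBIZ and BCL3 share loci. Tested against a log2 fold change of at most 1, 5 of the 10 were higher, beside 3.17% of all loci. So were 1 of 9 receptors, 5 of 16 adaptors, 2 of 11 kinases, 0 of 4 genes of the IκB ubiquitin ligase and 3 of 9 brakes. Among the remaining lists, 14 of 22 target genes, 6 of 9 IRF genes and 3 of 7 STAT genes were higher. This null asks for a larger change by construction. Over loci of 1 symbol, 3 receptors were higher, since fewer loci were tested. Re-centring subtracted its shift of -0.06 from every log2 fold change, which raised each of them by construction, and 2 genes of the IκB ubiquitin ligase were then higher. It also moved the split over all loci to 6197 higher and 5142 lower, beside 5442 and 5946. The 1 lower call among the adaptors was lost under re-centring, in Cuffdiff, at 0.01 and under Holm, those of PDLIM2, COMMD1 and IL1R2 under Holm, and that of COMMD1 also in Cuffdiff; over loci of 1 symbol the median of the brakes was 1.08. Over transcripts under a gene's own name, an alternative chosen after seeing the data and with no test, the log2 ratio of NFKBIZ was 3.52, beside 1.92 for its locus, and all 10 stayed above 0. A looser κB form, GGG then any 5 bases then CC, was present in all 14 member windows and in 58.7% of all windows. No paired analysis was possible because the tables hold no value per library, and leaving out libraries was not run for the same reason. Depth limits BCL3 most, at 71.7 normalized counts in control.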
